A study of Mus musculus with 9 samples.

Results

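The mRNAs of the E2F and DP transcription factors were followed in MyC-CaP mouse prostate cancer cells. The family was taken whole, by name: E2f1 to E2f8 and the dimerization partners Tfdp1 and Tfdp2, 10 of the 15384 genes in the count table. All 10 were in the table, and 9 had enough reads to be tested, E2f6 being the exception. Between time 0 and 24 h with asporin (ASPN), E2f1, E2f2, E2f5 and E2f7 rose by 1.55-fold to 1.83-fold. E2f4 and Tfdp1, the most abundant of the 10 per length, did not pass the test in that comparison, nor did E2f8.

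E2F proteins bind DNA upstream of genes for S phase entry, most of them as heterodimers with a DP protein. E2f1, E2f2 and E2f3 are known as activators, E2f4 and E2f5 as repressors that act with the pocket proteins, E2f6 as a repressor that acts with Polycomb-type partners, and E2f7 and E2f8 as atypical repressors that bind DNA without DP. In quiescent cells pocket proteins hold the E2Fs in check, and phosphorylation of the pocket proteins by cyclin-dependent kinases late in G1 releases them, so that genes for DNA replication are transcribed, E2f1 itself among them. In many prostate cancers the RB pathway is altered, most often late in the disease.

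The study asked how ASPN, a small leucine-rich proteoglycan secreted by fibroblasts of the tumor stroma, acts on prostate cancer cells. MyC-CaP is 1 cell line, grown from a prostate carcinoma of a mouse that carries a human MYC transgene under a probasin promoter. All cells went without serum and calcium for 6 to 12 h, those of 2 groups were then given recombinant mouse ASPN at 100 ng/mL for 12 or 24 h, and mRNA libraries were made from 3 biological replicates of each and of time 0. Libraries of time 0 carry the ASPN label as well and served here as the starting point. The protocol also mentions a buffer, which the labels tie to none of the 9 libraries. No libraries of cells kept for 12 or 24 h without ASPN were analysed here, so ASPN and the hours in culture after starvation cannot be told apart in any comparison below. The composition of the medium during treatment is not given in the sources used here.

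The libraries held 41881191 to 52993821 counts (median 44779129), and 3 counts, used as the detection floor, correspond to 0.0566 to 0.0716 CPM, that is, counts scaled to the size of the library with TMM factors, which set the bulk of genes level between libraries. Of 4 epithelial markers, Krt8 alone was above 1 CPM (24.8 to 42.2 CPM), Epcam and Cdh1 were at or near 0 in all 9 libraries, and the summed level was 25.1 to 27.1 CPM at time 0 and 32.6 to 42.7 CPM at 24 h. Among luminal prostate markers, Hoxb13 (67.6 to 104 CPM) and Foxa1 (87.7 to 239.8 CPM) were expressed, and Pbsn and Tmprss2 were at or near 0. Foxa1 was at 226 to 239.8 CPM at time 0, 204 to 213 CPM at 12 h and 87.7 to 95.3 CPM at 24 h. Hoxb13 was at 67.99 to 74.5 CPM, 67.6 to 71.5 CPM and 91.4 to 104 CPM at these times. Basal, leukocyte and endothelial markers summed to under 1 CPM in every library. The fibroblast markers in the table (3 of 6 listed) summed to 12.96 to 14.1 CPM at time 0, 12.2 to 12.5 CPM at 12 h and 9.09 to 10.3 CPM at 24 h, with Pdgfra alone above 1 CPM. The part of these markers in the results below was not tested.

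The RefSeq windows around annotated starts (250 bases before to 50 after, GRCm38.p6) were searched on both strands for 4 words of the classical E2F site, TTTCCCGC, TTTCGCGC, TTTGCCGC and TTTGGCGC. Windows were found for 8 of the 10 genes, all but E2f4 and E2f5. A word was found in 5 of their 12 windows, in E2f2, E2f3, E2f7 and both overlapping windows of Tfdp1, which hold the same word. Of the 32851 windows of all genes 2.26% held one. E2f2, E2f3 and E2f7 are shown because their mRNAs changed with time in opposite directions, E2f2 and E2f7 upward and E2f3 downward. The word is in capitals, and each sequence is read 5′ to 3′ on the strand of the gene.
E2f2, chr4:136172024-136172323, plus strand: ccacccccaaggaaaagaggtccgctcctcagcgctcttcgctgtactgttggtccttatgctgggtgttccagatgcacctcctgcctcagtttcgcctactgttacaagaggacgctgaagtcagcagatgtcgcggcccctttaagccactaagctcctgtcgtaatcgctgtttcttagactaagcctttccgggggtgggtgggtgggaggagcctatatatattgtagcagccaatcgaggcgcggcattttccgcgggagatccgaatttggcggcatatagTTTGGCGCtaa
E2f3, chr13:29986014-29986313, minus strand: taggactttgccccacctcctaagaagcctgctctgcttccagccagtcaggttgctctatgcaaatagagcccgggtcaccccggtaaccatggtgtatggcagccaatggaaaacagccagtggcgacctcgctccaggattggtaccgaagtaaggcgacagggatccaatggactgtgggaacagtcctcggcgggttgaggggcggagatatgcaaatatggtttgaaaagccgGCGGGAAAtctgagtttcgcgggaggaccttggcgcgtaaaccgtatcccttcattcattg
E2f7, chr10:110745189-110745488, plus strand: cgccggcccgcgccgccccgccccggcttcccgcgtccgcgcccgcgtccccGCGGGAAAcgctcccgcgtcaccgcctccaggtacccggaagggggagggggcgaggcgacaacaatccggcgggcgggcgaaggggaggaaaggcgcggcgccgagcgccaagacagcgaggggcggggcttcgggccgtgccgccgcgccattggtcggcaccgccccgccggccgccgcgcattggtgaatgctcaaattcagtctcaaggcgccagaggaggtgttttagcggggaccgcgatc
The E2f2 word starts at base 40 after the RefSeq start, a position 81 bases before the GENCODE start given for the gene below. The words of E2f3 and E2f7 lie before the start and are read on the opposite strand. The E2f1 window in the table, chr2:154569377-154569676, lies inside the annotated gene, which on this strand starts at base 154569892, so the region before the start of E2f1 was not searched. The same holds for Tfdp2, whose windows, chr9:96258455-96258754 and chr9:96258998-96259297, lie inside the gene, which starts at base 96196275. A match describes the letters in the window and no bound factor.

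**Figure D1:**
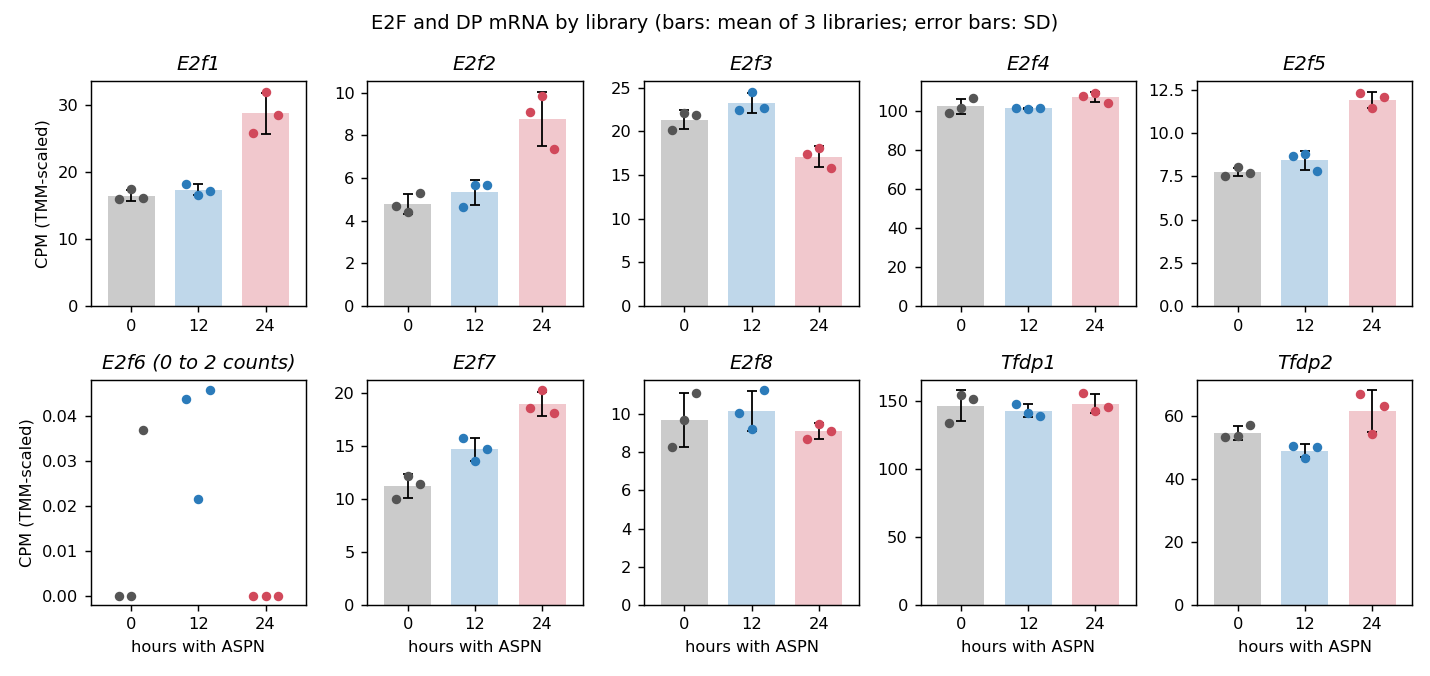
Level of each of the 10 mRNAs in CPM (vertical axes, from 0, TMM-scaled) by hours with ASPN (horizontal axes). Points are libraries, bars are means of 3 libraries and error bars are SD; E2f6 is shown as points only. E2f1 at 24 h was 25.8 to 32.0 CPM, above all 6 earlier libraries, and E2f3 at 24 h was 15.8 to 18.1 CPM, below all 6.

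Among the activators, E2f1 and E2f2 rose between 12 and 24 h, and E2f3 was lower at 24 h than before. In the following, a gene is called when the Benjamini-Hochberg adjusted p of edgeR's quasi-likelihood test over all tested genes is 0.05 or less and the change is at least 1.5-fold. E2f1 (ENSMUSG00000027490.17, chr2:154559407-154569892, GRCm38), which drives genes of DNA synthesis and, when in excess, of apoptosis, stood at 16.0, 17.5 and 16.1 CPM at time 0, 18.2, 16.6 and 17.2 CPM at 12 h and 25.8, 32.0 and 28.5 CPM at 24 h. The 24 h libraries were all above the other 6, while those of time 0 and 12 h overlapped. By edgeR's quasi-likelihood test the log2 fold change of E2f1 was 0.81 ± 0.079 (SE, adjusted p = 8.2e-07) from time 0 to 24 h, 0.75 ± 0.076 (adjusted p = 1.1e-06) from 12 to 24 h and 0.08 ± 0.066 (adjusted p = 0.57) from time 0 to 12 h. Less RNA per cell and fewer cells expressing a gene cannot be told apart in such bulk libraries, nor can a change in the share of cells in each phase of the cycle.

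E2f2 (ENSMUSG00000018983.9, chr4:136172394-136196057), an activator close in sequence to E2f1, stood at 4.67, 4.40 and 5.32 CPM at time 0, 4.66, 5.68 and 5.67 CPM at 12 h and 9.11, 9.84 and 7.34 CPM at 24 h. Here too the 24 h libraries were above the other 6. The log2 fold change at 24 h was 0.87 ± 0.13 against time 0 (edgeR adjusted p = 3.6e-05) and 0.74 ± 0.12 against 12 h (adjusted p = 0.00014). E2f3 (ENSMUSG00000016477.18, chr13:29906575-29986063), whose 2 promoters give the isoforms E2f3a and E2f3b that these gene counts add together, stood at 20.1, 22.05 and 21.8 CPM at time 0, 22.4, 24.5 and 22.7 CPM at 12 h and 17.4, 18.1 and 15.8 CPM at 24 h. All 24 h libraries were below the other 6. Its log2 fold change was -0.31 ± 0.072 against time 0 (edgeR adjusted p = 0.0016) and -0.42 ± 0.068 against 12 h (adjusted p = 9.7e-05), which passed the adjusted p but not 1.5-fold.

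The ratios within a library do not depend on the scaling between libraries. The ratio of E2f1 to E2f3 in RPKM (CPM per kilobase of exons) was 1.27 to 1.37 at time 0, 1.17 to 1.40 at 12 h and 2.55 to 3.11 at 24 h. That of E2f2 to E2f3 was 0.222 to 0.271, 0.231 to 0.278 and 0.518 to 0.604. In both, the 24 h libraries lay above all others. These pairs were chosen after their values were seen and were not tested.

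Of the pocket-binding repressors, E2f5 rose and E2f4 stayed within a narrow range of values. E2f4 (ENSMUSG00000014859.9, chr8:105297663-105305370), which with p107 and p130 represses cell cycle genes in resting cells, stood at 99.0, 102 and 106 CPM at time 0, 101, 101 and 102 CPM at 12 h and 108, 109 and 104 CPM at 24 h. Its log2 fold change at 24 h was 0.07 ± 0.043 against time 0 (edgeR adjusted p = 0.15) and 0.10 ± 0.036 against 12 h (adjusted p = 0.021). E2f5 (ENSMUSG00000027552.14, chr3:14578641-14606309), which mainly binds p130, stood at 7.54, 8.02 and 7.69 CPM at time 0, 8.71, 8.80 and 7.80 CPM at 12 h and 12.3, 11.4 and 12.1 CPM at 24 h. All 24 h libraries were above the others. Its log2 fold change was 0.63 ± 0.085 against time 0 (edgeR adjusted p = 1.7e-05), near the 1.5-fold limit, and 0.52 ± 0.082 against 12 h (adjusted p = 6.8e-05), short of it. E2f5 fell short of the call at 24 h under length and GC correction (0.46), total-count scaling (0.41) and a test against 1.5-fold itself (adjusted p = 0.48), while its adjusted p ranged from 6.3e-09 to 0.001 under the alternatives other than the last.

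E2f6 (ENSMUSG00000057469.8, chr12:16810963-16839742) had 0, 0 and 2 counts at time 0, 2, 1 and 2 at 12 h and 0 in each library at 24 h, 7 in all. Every library was under the floor of 3 counts, and no fold change was computed. It was 1 of 1647 genes in the table with at most 2 counts in each library, 10.7% of the table. No transcript of another gene in the annotation matched its longest transcript at 95% identity or more. Its neighbours in the table, picked after the E2f6 values were seen, were Greb1 with 120 to 423 counts on one side and Rock2 with 8361 to 11044 on the other. The genes for proteins that E2f6 is known to join in repressor complexes were expressed: 8 of 8 were tested, and at 24 h against time 0 none was called higher and 2 were called lower (12% and 16.8% of all tested genes), Mga (12.2, 12.2 and 11.6 CPM to 6.35, 6.11 and 5.78 CPM) and L3mbtl2 (12.9, 12.6 and 13.3 CPM to 7.94, 7.75 and 8.44 CPM). L3mbtl2 was not called at 24 h under length and GC correction, where its log2 fold change was -0.39 in place of -0.68. Nor was it called by a test against 1.5-fold itself.

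The atypical factors parted. E2f7 (ENSMUSG00000020185.16, chr10:110745439-110787384), which with E2f8 shuts down E2F targets late in S phase, stood at 9.97, 12.2 and 11.4 CPM at time 0, 15.7, 13.5 and 14.7 CPM at 12 h and 18.5, 20.2 and 18.04 CPM at 24 h. The 3 times did not overlap. It was the one family member with a higher level at 12 h by the adjusted p (log2 fold change 0.40 ± 0.086, edgeR adjusted p = 0.0051), though not by 1.5-fold, and it reached 0.77 ± 0.088 at 24 h against time 0 (adjusted p = 3.7e-06). From 12 to 24 h the change was 0.39 ± 0.074 (edgeR adjusted p = 0.00035), which passed the call under length and GC correction (0.61) and missed the adjusted p under total-count scaling (0.17, adjusted p = 0.063). E2f8 (ENSMUSG00000046179.17, chr7:48866429-48881596) stood at 8.29, 9.72 and 11.1 CPM, 10.04, 9.21 and 11.2 CPM, and 8.67, 9.51 and 9.14 CPM, with overlap throughout. Its change at 24 h against time 0 was -0.09 ± 0.11 (edgeR adjusted p = 0.48), and the sign turned under length and GC correction (0.05). The ratio of E2f7 to E2f8 in RPKM was 0.619 to 0.756 at time 0, 0.790 to 0.946 at 12 h and 1.19 to 1.29 at 24 h. Genes on the opposite strand share 26 exon bases with E2f5, 86 with E2f7 and 610 with E2f8, and without strand in the counting reads of these stretches cannot be told apart.

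Neither DP partner was called in any comparison. Tfdp1 (ENSMUSG00000038482.11, chr8:13338751-13378448), which pairs with E2f1 to E2f6, stood at 134, 154 and 152 CPM at time 0, 148, 142 and 139 CPM at 12 h and 156, 142 and 146 CPM at 24 h. All 3 times overlapped, and the log2 fold change at 24 h against time 0 was 0.02 ± 0.057 (edgeR adjusted p = 0.77). The processed pseudogene Gm7390 matches 755 bases of Tfdp1 at 99.1% identity, so some reads may be shared. Tfdp2 (ENSMUSG00000032411.15, chr9:96196275-96323646) stood at 53.4, 53.6 and 57.1 CPM, then 50.4, 46.6 and 50.3 CPM, then 67.2, 54.3 and 63.4 CPM. Its 12 h libraries were below the rest. The log2 fold change was -0.15 ± 0.043 at 12 h (edgeR adjusted p = 0.032), 0.18 ± 0.068 at 24 h against time 0 (adjusted p = 0.034) and 0.35 ± 0.069 from 12 to 24 h (adjusted p = 0.0005), none reaching 1.5-fold. The adjusted p was not stable: it rose to 0.20 at 12 h without 12 h replicate 2 (0.17 without 0 h replicate 3, 0.055 without 12 h replicate 3) and in the fit of all 9 libraries. At 24 h against time 0 it was 0.13 without 24 h replicate 1 (log2 fold change 0.11) and 0.069 to 0.11 without 24 h replicate 3, 0 h replicate 1 or 0 h replicate 2. From 12 to 24 h it was 0.12 under total-count scaling (0.13).

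**Figure D2:**
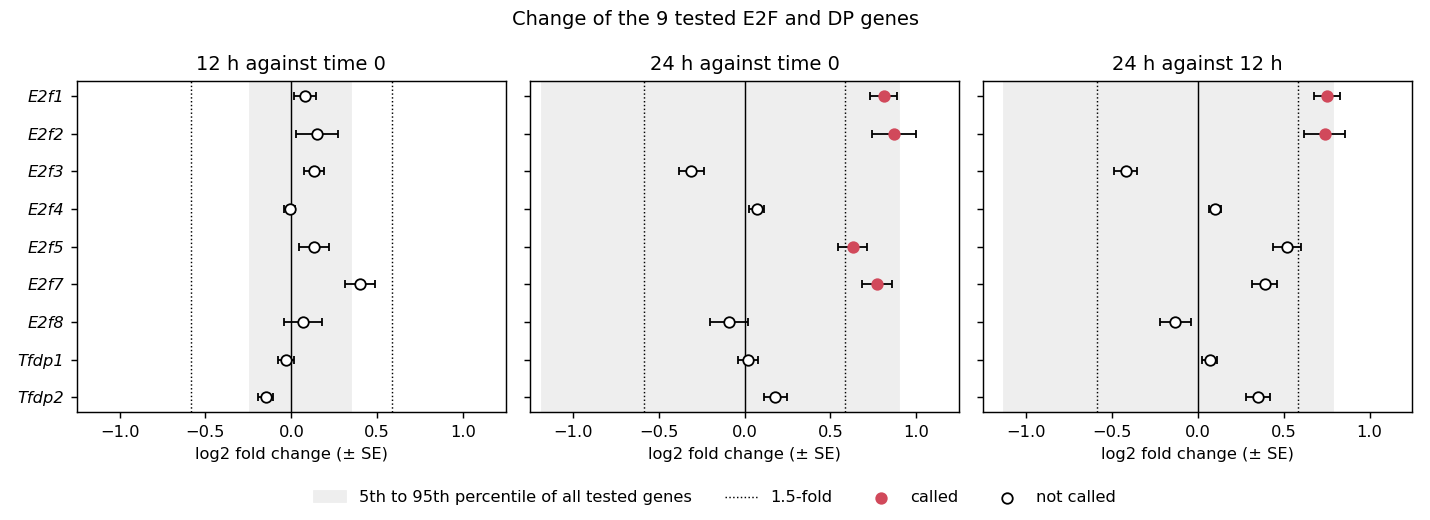
Log2 fold change (horizontal axes, with SE) of the 9 tested genes in the 3 comparisons, over the range from the 5th to the 95th percentile of all tested genes (grey) and the 1.5-fold limits (dotted). Filled points were called: E2f1, E2f2, E2f5 and E2f7 at 24 h against time 0, and E2f1 and E2f2 at 24 h against 12 h.

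At 12 h 0 of the 9 tested members were called, with 1.5% of all 11410 tested genes called higher and 0.0964% called lower. Of the 9, 3 had an unadjusted p under 0.05 by edgeR, against 21.4% of all genes, and DESeq2 and limma-voom also called 0. By the adjusted p alone 2 passed (E2f7 and Tfdp2), against 10.3% of all genes, and 3 had libraries that did not overlap, against 27%. At 24 h against time 0, 4 of 9 were called higher and 0 lower, against 12% and 16.8% of all 11444 tested genes. The adjusted p alone passed 6 of 9, against 70.9%, and 5 did not overlap, against 73.9%, so neither count stands out from the table. The median log2 fold change of the 9 was 0.18 and that of all genes -0.02. At 24 h against 12 h, 2 were called higher and 0 lower, against 10.4% and 15.3% of 11394 genes. There 7 passed the adjusted p (all genes 71.3%) and 7 did not overlap (all genes 73.9%), with a median of 0.35 against 0.00. The 3 comparisons share libraries and are not independent of each other.

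The direction of the least changed members rested on the scaling. TMM factors were 1.04 to 1.07 at time 0 and 12 h and 0.899 to 0.914 at 24 h, and scaling by the total count alone moved the median of all genes at 24 h against time 0 by -0.22, to -0.24. Under it E2f4 (-0.15), Tfdp1 (-0.20) and Tfdp2 (-0.05) turned negative, each still above that median. E2f1 (0.59) and E2f2 (0.65) remained called, E2f5 (0.41) and E2f7 (0.54) fell short of 1.5-fold, and E2f3 was -0.54. At 24 h against 12 h, where the median moved by -0.22, E2f1 (0.53) and E2f2 (0.52) fell short of 1.5-fold and E2f3 (-0.64) was called lower.

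**Figure D3:**
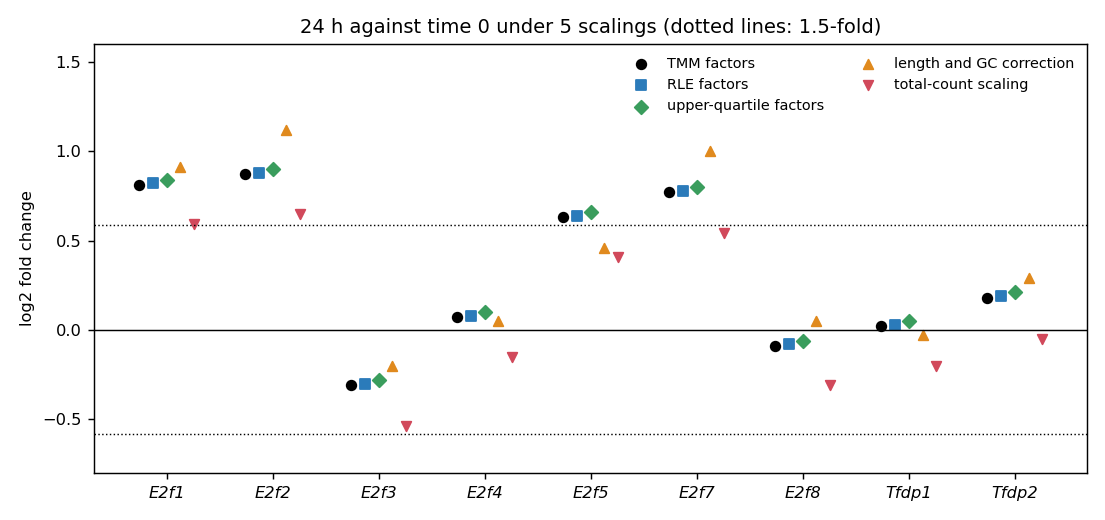
Log2 fold change at 24 h against time 0 (vertical axis) of the 9 tested genes under 5 scalings, with the 1.5-fold limits dotted. TMM, RLE and upper-quartile factors gave close values, and total-count scaling gave the lowest value for each gene, from 0.65 for E2f2 to -0.54 for E2f3.

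Compared per length, E2f4 and Tfdp1 stood apart from the rest. In RPKM, E2f4 had a mean of 41.7 at time 0 and Tfdp1 of 39.9, with overlapping libraries, and the order went on with E2f1 (5.24), E2f5 (4.35), E2f3 (3.93), Tfdp2 (3.90), E2f8 (1.78), E2f7 (1.24) and E2f2 (0.983). Of these neighbours E2f3 and Tfdp2 overlapped and the others did not. At 24 h E2f4 (43.7) and Tfdp1 (40.3) were again the highest, E2f1 was at 9.12, E2f5 at 6.70, Tfdp2 at 4.39 and E2f3 at 3.15. E2f7 (2.10), E2f2 (1.80) and E2f8 (1.67) followed, E2f2 overlapping with both of the others. With the length of the longest transcript in place of all exons, Tfdp1 (52.6) was above E2f4 (51.4) at time 0, and Tfdp2 (7.44) came next.

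E2f4 made up 69.6% to 70.9% of the summed RPKM of the 8 E2F genes at time 0, 68.1% to 68.7% at 12 h and 63.3% to 64.9% at 24 h. E2f1 made up 8.32% to 9.29%, 8.73% to 9.53% and 12.1% to 14.4%. The activators together held 16.7% to 17.6% at time 0 and 19.6% to 21.96% at 24 h, and the atypical pair 4.61% to 5.41% and 5.38% to 5.66%. The E2f4 share was 64.7% to 66.4% at 24 h with the longest transcripts. The summed DP level per summed E2F level was 0.705 to 0.770 at time 0, 0.689 to 0.724 at 12 h and 0.605 to 0.698 at 24 h. Shares and ratios are descriptions and were not tested.

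**Figure D4:**
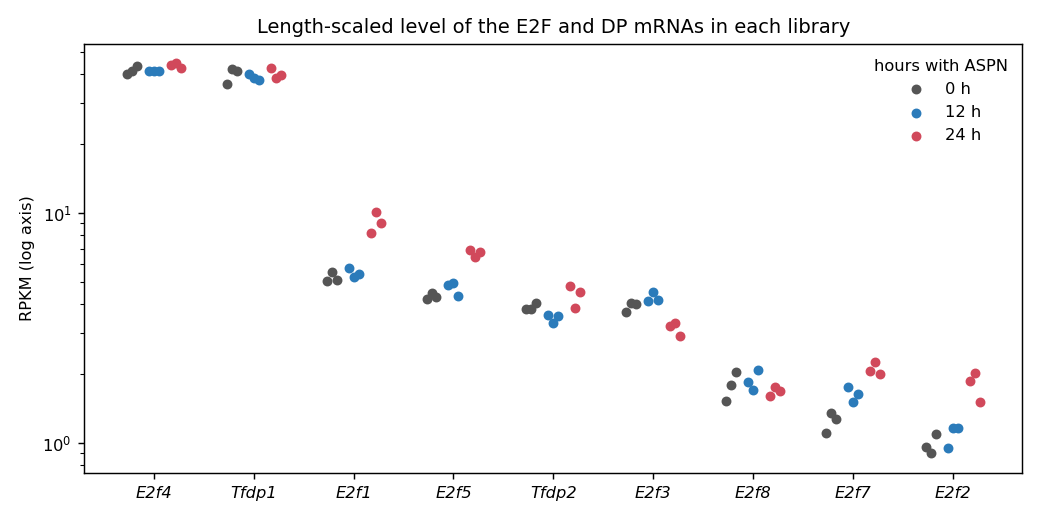
Level per length in RPKM (vertical log axis) of the 9 genes above the floor in each library, ordered by their mean and colored by hours with ASPN. E2f4 and Tfdp1 lay at 36.4 to 44.7 RPKM in all 9 libraries, and the other genes at 0.901 to 10.1 RPKM.

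The pocket proteins are the direct partners of E2f1 to E2f5. Rb1, which encodes the retinoblastoma protein and restrains the activators, stood at 19.1, 18.8 and 19.9 CPM at time 0, 20.1, 20.1 and 19.2 CPM at 12 h and 34.4, 34.05 and 29.8 CPM at 24 h. Its 24 h libraries were above all others, with a log2 fold change of 0.77 ± 0.068 against time 0 (edgeR adjusted p = 2.9e-07). Scaled by the total count alone, Rb1 changed by 0.55, short of 1.5-fold. Rbl1 (p107) changed by 0.17 ± 0.089 (edgeR adjusted p = 0.10) and Rbl2 (p130) by -0.16 ± 0.058 (adjusted p = 0.026) in the same comparison, and neither was called. Without 0 h replicate 1 the changes were 0.09 for Rbl1 and -0.08 for Rbl2 (edgeR adjusted p = 0.30 and 0.22), and without 0 h replicate 3 Rbl1 was at 0.27 (adjusted p = 0.017). The adjusted p of Rbl2 was also above 0.05 without 0 h replicate 2, 24 h replicate 2 or 24 h replicate 3 (0.055 to 0.085). Pocket proteins are also controlled by phosphorylation, which mRNA counts do not show.

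Upstream of them, the D and E cyclins and their kinases, which phosphorylate pocket proteins, were mostly not called at 24 h against time 0. Of 8 listed genes 7 were in the table and tested. By the adjusted p alone 5 were higher and 1 lower, where 70.9% of all genes passed. Their median log2 fold change was 0.26, beside -0.02 for all genes. None was called higher and 1 was called lower (all genes 12% and 16.8%), Ccnd1 (232, 233 and 239 CPM to 141, 164 and 154 CPM, log2 fold change -0.61). It was not called under upper-quartile factors (-0.58), under length and GC correction (-0.50) or without 24 h replicate 1 (-0.56). Nor was it called by a test against 1.5-fold itself. Of 7 CDK inhibitor genes 3 were called higher and 1 lower, beside 12% and 16.8% of all genes. Cdkn1a (p21) went from 32.9, 32.9 and 32.5 CPM to 84.6, 120 and 96.6 CPM (log2 fold change 1.62 ± 0.096), Cdkn2d (p19Ink4d) changed by 0.80 ± 0.070 and Cdkn2a by 0.65 ± 0.037. Cdkn2a counts add p16Ink4a and p19Arf, which share exons, and fell short of 1.5-fold under length and GC correction (0.51) and total-count scaling (0.43). Cdkn2a was also not called by a test against 1.5-fold itself. Cdkn2d fell short under total-count scaling (0.57). Cdkn2c (p18Ink4c), a known E2F-responsive inhibitor of Cdk4 and Cdk6, dropped from 73.5, 72.4 and 73.3 CPM to 16.4, 18.2 and 19.6 CPM, a log2 fold change of -2.01 ± 0.061. None of the CDK inhibitors was called at 12 h, beside 1.5% of all genes called higher and 0.0964% called lower. By the adjusted p alone 1 of the 7 was higher and 1 lower, where 10.3% of all genes passed. The lower was Cdkn2c, at 57.9, 51.6 and 58.7 CPM, all below time 0 (log2 fold change -0.38 ± 0.045, edgeR adjusted p = 1.5e-05).

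Of the MuvB core, B-Myb and Foxm1, the complex that takes over from E2F toward mitosis, 1 of 7 genes was called higher at 24 h against time 0 and 0 lower, beside 12% and 16.8% of all genes. It was Lin54, the DNA-binding subunit, at 13.04, 11.9 and 13.3 CPM and then 29.2, 31.7 and 30.9 CPM. By the adjusted p alone 4 of the 7 were higher and 1 lower (-0.52), where 70.9% of all genes passed. The median log2 fold change of the list was 0.40, beside -0.02 for all genes. Of 5 genes for the turnover of E2F proteins, Ccna2, whose cyclin A with Cdk2 phosphorylates E2f1 and Dp1, was called higher (61.0, 66.6 and 71.3 CPM to 101, 107 and 99.8 CPM, log2 fold change 0.64). It fell short under total-count scaling (0.41) and by glmTreat, which tests against 1.5-fold itself (adjusted p = 0.28). Ccnf, whose product cyclin F marks E2f1, E2f2 and E2f3 as well as E2f7 and E2f8 for destruction, was called lower (all genes 12% higher and 16.8% lower), from 16.2, 17.9 and 19.2 CPM to 3.98, 3.93 and 3.17 CPM (log2 fold change -2.26 ± 0.11). Its 12 h libraries were at 16.3, 14.9 and 17.1 CPM.

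Of 32 tested G1/S genes that E2F is known to activate, 18 were called higher and 0 lower at 24 h against time 0, beside 12% and 16.8% of all genes, and the median log2 fold change was 0.63, beside -0.02 for all genes. Orc1, which loads the replicative helicase, rose from 5.98, 7.40 and 6.10 CPM to 15.9, 19.7 and 16.6 CPM (log2 fold change 1.43 ± 0.11), Gins2 of the helicase complex by 1.36 ± 0.11 and the primase gene Prim1 by 1.17 ± 0.063. The other 14 were not called. By the adjusted p alone 25 of the 32 were higher and 1 lower, where 70.9% of all genes passed, and 4 had negative values, down to -0.17. At 12 h 0 of the 32 were called by edgeR, DESeq2 or limma-voom, with 1.5% of all genes called higher and 0.0964% lower by edgeR. By the adjusted p alone 2 were higher and 1 lower, where 10.3% of all genes passed. Orc1 was among the higher, at 9.41, 7.92 and 9.90 CPM, all above time 0 (log2 fold change 0.49 ± 0.11, edgeR adjusted p = 0.0065). An unadjusted p under 0.05 was found for 8 of the 32 and for 21.4% of all genes, and the median of the list was 0.07. At 24 h against 12 h 17 were called higher and 0 lower, beside 10.4% and 15.3% of all genes. With total-count scaling 13 of 32 were called at 24 h against time 0.

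The 16 G2/M genes, whose timing is set by MuvB complexes, were mixed. At 24 h against time 0, 2 were called higher, the kinetochore genes Bub1 (26.8, 31.2 and 29.2 CPM to 63.1, 59.7 and 62.1 CPM) and Cenpe (log2 fold change 0.82 ± 0.061), and 0 lower, a count near the 12% called higher among all genes. By the adjusted p alone 9 were higher and 5 lower, where 70.9% of all genes passed, and the median was 0.19. Of 7 genes of E2F-responsive apoptosis 5 were tested, 0 were called higher and 1 lower (all genes 12% and 16.8%), Bcl2l11 (Bim), from 40.9, 38.2 and 39.1 CPM to 16.4, 14.1 and 17.4 CPM.

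**Figure D5:**
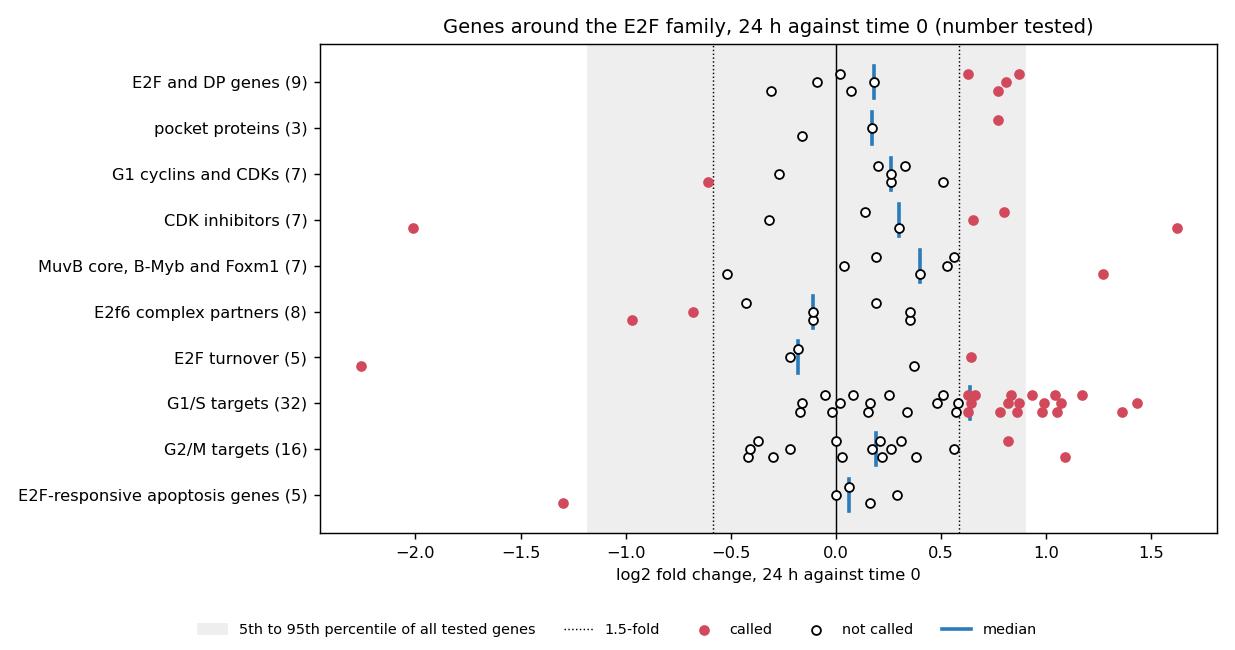
Log2 fold change at 24 h against time 0 (horizontal axis) of each tested gene in the E2F and DP family and in 9 lists of partners, regulators and targets. Filled points were called, blue lines are list medians and grey marks the 5th to 95th percentile of all tested genes. The G1/S list has 18 of 32 points called, all to the right, and a median of 0.63.

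The genes whose levels followed those of a family member most closely were sought among 9273 genes with a mean of at least 5 CPM, by Pearson correlation of log2 CPM over the 9 libraries. The 9 points fall in 3 time groups and share their scaling factors, so the values describe likeness only. Closest to E2f1 were Cdkn2d (r = 0.992), Vezt (0.991) and 9130008F23Rik (0.990). Closest to E2f4 were Arl2 (0.943), H2az2 (0.924) and Uxt (0.924), and closest to Tfdp1 were Hspa14 (0.910), Srrt (0.889) and Nol10 (0.888). E2f8 had looser matches, Fignl1 (0.857), Spint1 (0.845) and Nup93 (0.845). Within the family E2f1 was most like E2f5 (0.936) and least like E2f3 (-0.846).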

How the data were processed

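RNA-Seq gene counts of 9 MyC-CaP libraries were used, 3 per time. Per the labels and the paper's methods, the authors trimmed reads with cutadapt, aligned them to GRCm38 (STAR) and used featureCounts to count them by gene; the deposited values are raw counts. Strand setting and the choice of the genes in the table are not given in the sources used here. Libraries of other cells or treatments were not analysed here, and some luminal markers are not reported here. The replicates are wells of 1 line, so p-values measure the spread between such cultures.

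Each pair of times was tested with the quasi-likelihood test of edgeR 4.0.16 (R 4.3.3) after filterByExpr and TMM scaling, with no block. A call needed a change of 1.5-fold or more and a p, adjusted by Benjamini-Hochberg over all tested genes, of at most 0.05. SE is the log2 fold change over the square root of F. CPM is TMM-scaled over the 9 libraries, and RPKM is CPM per kilobase of merged exons in GENCODE M21 (15374 of 15384 genes found by identifier). Scripts were tested on simulated data.

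The members and lists were chosen with earlier results of these data known. Named were all members, the pocket proteins, up to 3 called genes per list and direction with the largest change at 24 h against time 0 and a mean of at least 1 CPM, every called gene where 3 or fewer of a list were called, and the 3 genes most correlated with E2f1, E2f4, E2f8 and Tfdp1. Alternatives were DESeq2 1.42.0, limma-voom (limma 3.58.1), RLE, upper-quartile and total-count scaling, no filter, a minimum of 10 counts per library, 1 fit of all 9 libraries, the replicate number as a block, length and GC correction (loess, span 0.3) with and without that block, glmTreat, the adjusted p alone, and each library left out. Counting error alone sets the floor of 3 counts.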

Additional observations from a re-analysis of the deposited data

How the results depend on the processing

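Of 486 fold changes of members under the alternatives, 457 kept direction and side of the threshold, 8 lost the call, 3 gained it and 18 changed sign; of 738 for other named genes these numbers were 700, 24, 6 and 8. The cause was not tested unless the setting itself gives it. Members called were 2 by the adjusted p alone at 12 h, 2 under total-count scaling at 24 h against time 0, and, at 24 h against 12 h, 1 under total-count scaling (E2f3, lower, -0.64), 1 under glmTreat (E2f1) and 7 by the adjusted p alone. G1/S genes called were 3 by the adjusted p alone at 12 h, where leaving out a library gave 0 to 1 (1 without 0 h replicate 2), and 11 under total-count scaling and 26 by the adjusted p alone at 24 h against 12 h. Leaving out any library kept the same members called (0, 4 and 2 in the 3 comparisons).

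Signs that turned were all of uncalled changes. Under total-count scaling they were, at 24 h against time 0, E2f4 (-0.15), Tfdp1 (-0.20), Tfdp2 (-0.05) and Rbl1 (-0.05), and against 12 h E2f4 (-0.12), Tfdp1 (-0.15) and Rbl1 (-0.10). Under length and GC correction, with or without the block, they were E2f4 at 12 h (0.01), E2f8 (0.05) and Tfdp1 (-0.03) at 24 h against time 0 and Rbl2 at 24 h against 12 h (0.05; 0.01 under upper-quartile factors). Leaving out 1 library gave log2 fold changes at 12 h of -0.03 to 0.02 for E2f4, -0.03 to 0.18 for E2f8, -0.09 to 0.01 for Tfdp1 and -0.03 to 0.16 for Rbl1, at 24 h against time 0 of -0.17 to 0.04 for E2f8 and -0.02 to 0.07 for Tfdp1, and at 24 h against 12 h of -0.05 to 0.02 for Rbl2.

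Same-numbered libraries had deviations correlated at -0.102 to 0.0569, so no strong effect shared by replicate number was seen. These values cannot show whether same-numbered cultures were handled together, which is not given in the sources used here. With the replicate block 0, 4 and 2 members were called, as without it, and 0, 18 and 17 G1/S genes. Depth limits only E2f6, which lies under the floor.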
